A study of Mus musculus with 6 samples.

Results

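The 5 microRNAs (miRNAs) described here, miR-130a, miR-132, miR-210, miR-10a and miR-222, are known from studies of blood vessel growth and of the endothelium, the cell layer that lines vessels. They were taken by name from a quantitative PCR panel of 380 named mouse miRNAs, and all 5 had a threshold cycle (Ct) in every sample, as did 123 of the panel's miRNAs. The other 257 had no deposited Ct in any sample, and 0 had a Ct in only some samples. Whether a missing Ct means no signal in each sample is therefore not known. Ct is the cycle at which an assay's fluorescence crosses a threshold, so abundant RNAs cross it early, and 1 cycle less stands for roughly 1 doubling of the RNA. The RNA came from exosomes, the small vesicles that cells shed, in serum of mice 2 weeks after ACLT, read here as surgical cutting of the anterior cruciate ligament to unsettle the knee. One group of 3 samples came from mice that received vehicle and the other group of 3 from mice that received OCExoInhib, in what is known of the study an agent meant to block exosome release by osteoclasts, and both groups share the surgery. Strain, sex, age, dose and route were not given in the sources used here. Per the series' design text, RNA of 3 mice a group was pooled in equal amounts, and it is not stated whether the 3 samples of a group are single mice or repeat runs, so the spread behind every p-value is that of these samples alone and could be technical.

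A miRNA pairs through its seed, bases 2 to 8 from its 5′ end, with messenger RNAs and lowers their translation and stability. In vessels such RNAs act as switches on growth factor signalling. miR-130a represses the antiangiogenic homeobox genes Meox2 (Gax) and Hoxa5, and miR-132 is induced by growth factors and releases Ras signalling by repressing the Ras inhibitor Rasa1. miR-210 is the classic miRNA of low oxygen, induced by hypoxia-inducible factor, and it represses the ligand Efna3. miR-10a restrains inflammatory NF-κB signalling in endothelium. miR-222, with its neighbour miR-221, represses the receptor Kit and is known to limit vessel growth. None of the 5 is made by endothelium alone, and in serum vesicles their source cells are not known.

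The mature sequences that the assays were designed for are shown because several members differ from a relative on the same panel by few bases. They are those of the deposited table, 5′ to 3′, with the seed in capitals.
miR-130a: cAGUGCAAuguuaaaagggcau
miR-130b: cAGUGCAAugaugaaagggcau
miR-132: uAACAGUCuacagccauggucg
miR-212: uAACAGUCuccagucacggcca
miR-210: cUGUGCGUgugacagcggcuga
miR-10a: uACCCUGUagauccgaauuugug
miR-10b: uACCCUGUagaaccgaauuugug
miR-222: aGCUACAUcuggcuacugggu
miR-221: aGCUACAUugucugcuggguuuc

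Each member has its own seed, so the 5 share no seed among themselves. miR-210 stands alone on the panel with its seed, and its sequence is the richest of the 5 in G and C, 63.6% against a panel median of 45.5%. miR-10a and miR-10b differ by the single substitution U12A, counted from 1 at the 5′ end with the member's base first. miR-130a and miR-130b differ by U11A and A13G. miR-132 and miR-212 differ at 5 of 22 positions, and miR-222 and miR-221 at 10 of the 21 positions compared without gaps. For 4 members the deposited sequence equals a RefSeq mature miRNA, and that of miR-222 lacks the last 2 bases of the RefSeq entry.

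In RefSeq on build GRCm38.p6 the members lie at separate places. Mature miR-130a is at chr2:84741116-84741137 on the minus strand, 2461 bases from Ypel4, with no gene other than its own overlapping it. miR-132 is at chr11:75173723-75173744 on the plus strand, between Hic1 and Ovca2, and its hairpin lies 203 bases from that of miR-212. miR-210 is at chr7:141221407-141221428 on the minus strand, 2749 bases from Rassf7. miR-10a, at chr11:96317186-96317208 on the plus strand, lies in the Hoxb cluster of body-patterning genes, within the span of Hoxb3 and 1059 bases from Hoxb4. miR-222 is at chrX:19146901-19146923 on the minus strand, with 504 bases between its hairpin and that of miR-221. Whether miR-10a falls in an exon or an intron of Hoxb3 was not analysed here, since the table used gives gene spans only.

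One feature of the deposited Ct values stands before the results. Between samples of a group, the same Ct difference recurs within 0.0015 cycles in at least 5 miRNAs. It was 0.939 cycles between vehicle 1 and vehicle 3 in 17 miRNAs, 0.570 between OCExoInhib 1 and 2 in 10, 1.886 between OCExoInhib 1 and 3 in 10, and 1.316 between OCExoInhib 2 and 3 in 5, so the recurrence spans all 3 OCExoInhib samples. Such a difference is carried by 23 of the 115 miRNAs tested, 22 of them among the 27 that passed the threshold below, and by 0 of the 5 members. With vehicle 1 and 3 averaged to 1 sample, 0 of the 5 members passed and the largest shift was that of miR-132, to −0.29.

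None of the 5 miRNAs passed the threshold between OCExoInhib and vehicle samples, and for each of them the values of the groups overlapped. On the deposited normalization, in which each Ct is set against the mean of 3 control wells (P21, P22 and P23), their log2 differences of OCExoInhib minus vehicle ran from −0.83 for miR-132 to −0.31 for miR-10a, with a median of −0.44. The median over the 115 miRNAs tested was −0.54, so the members lay near the middle of all of them. In limma's fit with Benjamini-Hochberg adjustment over the 115, 0 of 5 members passed an adjusted p of 0.05, against 27 of 115 miRNAs in all (23.5%), and 0 of 5 had an unadjusted p under 0.05. Groups that do not overlap were seen in 0 of 5 members and in 30 of 115 miRNAs (26.1%). The adjusted p was 0.866 for miR-130a, miR-132, miR-210 and miR-222 and 0.870 for miR-10a. In serum samples of this kind, fewer vesicles with a miRNA and less of it per vesicle cannot be told apart.

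**Figure D1:**
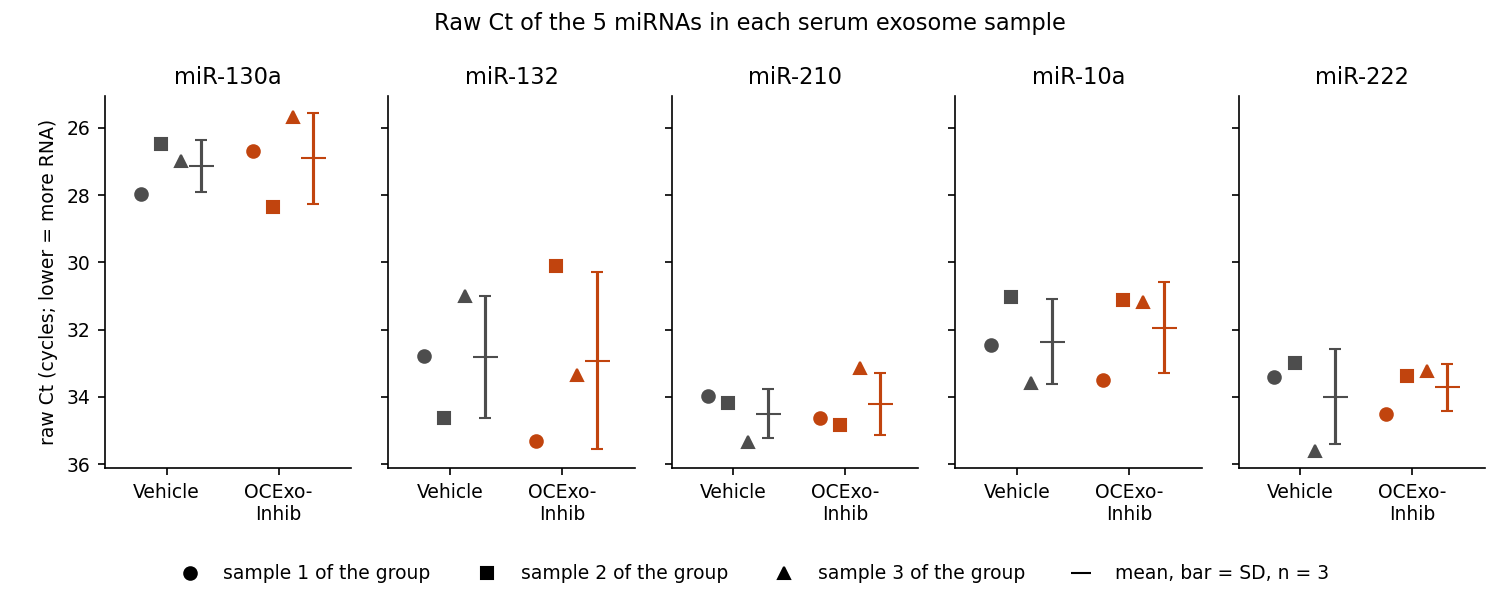
Raw Ct (cycles, axis turned so that more RNA is higher) of each miRNA in the 3 vehicle (grey) and 3 OCExoInhib (orange) samples, with group means and SD. The points of the groups overlap in all 5 panels, miR-130a has the earliest cycles and miR-132 the widest spread.

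miR-130a was the most abundant of the 5 by Ct. Its raw Ct was 27.974, 26.467 and 26.981 in vehicle samples 1 to 3, a mean of 27.1 ± 0.766 (SD, n = 3). In OCExoInhib samples 1 to 3 it was 26.685, 28.351 and 25.679, a mean of 26.9 ± 1.35 (SD, n = 3). The highest and the lowest of the 6 values were both OCExoInhib samples, so the vehicle values lay inside the OCExoInhib range. The normalized log2 difference was −0.49 (SE 0.79), with a 95% interval from −2.17 to 1.20, that is from 4.51-fold lower to 2.29-fold higher. Without OCExoInhib 2, the sample with the latest Ct, the difference was 0.017.

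miR-132 varied most. Its raw Ct in vehicle samples 1 to 3 was 32.777, 34.638 and 31.012, a mean of 32.8 ± 1.81 (SD, n = 3). The OCExoInhib samples gave 35.297, 30.104 and 33.352, a mean of 32.9 ± 2.62 (SD, n = 3). Each group thus held 1 sample near Ct 30 to 31 and 1 near Ct 35, and the group means differed by 0.109 cycles while the 6 values spanned 5.19. The within-group SD of its normalized level, 2.53, was the third largest of the 115 tested, whose median was 0.964. The normalized log2 difference was −0.83 (SE 1.28; 95% interval −3.55 to 1.88, from 11.7-fold lower to 3.69-fold higher). A change of several-fold either way could thus not have been detected here. Each of limma's SEs is drawn toward a value shared by the tested miRNAs. An unmoderated test, without this step, gave miR-132 a larger SE of 2.065, so its own values support only a wider interval. The difference was −2.46 without OCExoInhib 2 (limma adjusted p 0.119) and −1.92 without vehicle 2. It was 0.20 without vehicle 3 and 0.28 without OCExoInhib 1, whose Ct is the only value of this miRNA at 35 or later.

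miR-210 was the latest and the least variable of the 5. Its raw Ct was 33.985, 34.187 and 35.330 in vehicle samples 1 to 3, a mean of 34.5 ± 0.725 (SD, n = 3). It was 34.634, 34.842 and 33.140 in OCExoInhib samples, a mean of 34.2 ± 0.928 (SD, n = 3). The earliest value was an OCExoInhib sample and the latest a vehicle sample, with all others between them. Of the 123 miRNAs with a Ct in all samples, 112 had an earlier mean Ct than miR-210. Without vehicle 1 its difference below was −0.13, and without vehicle 3, the one sample past Ct 35, −0.71. Its log2 difference was −0.43 (SE 0.75), and the 95% interval ran from −2.03 to 1.17, or from 4.08-fold lower to 2.25-fold higher.

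miR-10a had raw Ct values of 32.446, 31.032 and 33.577 in vehicle samples 1 to 3, a mean of 32.4 ± 1.28 (SD, n = 3). In OCExoInhib samples they were 33.508, 31.113 and 31.190, a mean of 31.9 ± 1.36 (SD, n = 3). OCExoInhib 2 and 3 were close to the earliest vehicle sample and OCExoInhib 1 close to the latest. The log2 difference was the smallest of the 5, −0.31 (SE 0.87; 95% interval −2.16 to 1.54, from 4.48-fold lower to 2.91-fold higher). It was 0.40 without OCExoInhib 1 and 0.18 without vehicle 2.

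miR-222 had raw Ct values of 33.396, 32.980 and 35.609 in vehicle samples 1 to 3, a mean of 34.0 ± 1.41 (SD, n = 3). Those of OCExoInhib samples were 34.518, 33.384 and 33.239, a mean of 33.7 ± 0.700 (SD, n = 3), and all 3 lay inside the vehicle range. The latest value, that of vehicle 3, is past Ct 35, where few template molecules are counted. The log2 difference was −0.44 (SE 0.83; 95% interval −2.20 to 1.31, from 4.60-fold lower to 2.49-fold higher). It was −1.11 without vehicle 3, and −0.11 without vehicle 1 or vehicle 2 and −0.12 without OCExoInhib 1.

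By Ct, miR-130a came first in 6 of 6 samples, 5.21 ± 1.20 cycles before miR-10a in the vehicle group and 5.03 ± 2.07 in the OCExoInhib group (SD, n = 3 each). The mean order was miR-130a, miR-10a, miR-132, miR-222 and miR-210 in both groups. Neighbours after miR-130a overlapped in both groups, and none of these gaps exceeded its SD over samples. The order is that of assays, whose primer efficiencies are part of each Ct.

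The sign of the small differences followed the normalizer. The control wells had a mean Ct of 30.9 ± 0.318 in the vehicle group and of 30.2 ± 0.531 in the OCExoInhib group (SD, n = 3 each), a difference of −0.725 cycles (exact two-sided permutation p 0.2; the smallest possible is 0.1). The wells differed among themselves, at −1.004 cycles for P21 (exact p 0.1), −1.20 for P22 (exact p 0.2) and 0.035 for P23 (exact p 0.9). Members set against P21 or P22 alone were further below 0, as in miR-10a at −0.59 and −0.79. As raw Ct, 4 members were slightly earlier in OCExoInhib samples, by 0.236 cycles for miR-130a to 0.415 for miR-10a, and miR-132 was 0.109 later. The log2 differences without normalization were thus 0.24 for miR-130a, 0.30 for miR-210, 0.41 for miR-10a, 0.28 for miR-222 and −0.11 for miR-132. Global mean normalization centres each sample on the miRNAs under Ct 35 in all samples. With it all 5 were above 0, from 0.34 for miR-132 to 0.87 for miR-10a (limma adjusted p 0.61 or higher). That centring set is not balanced, since 19 of its miRNAs passed as lower and 0 as higher when fitted alone on the deposited normalization. The share of this in the change of sign was not tested. Centring on sample medians was the one setting of 24 in which members passed. Under it 4 of 5 did, miR-130a (2.04), miR-210 (2.10), miR-10a (2.22) and miR-222 (2.08), with limma adjusted p from 0.0406 to 0.0457. These 4 were among 68 of 115 miRNAs that passed, 57 of them higher and 11 lower, against 7 and 20 on the deposited normalization. The sample median Ct was 27.3 in vehicle and 29.1 in OCExoInhib samples on average. Centring on it thus adds 1.80 cycles to every unnormalized log2 difference alike. The median over all tested miRNAs was 0.183 without normalization and 1.98 with this centring. Relative to that median the members remained near the middle.

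**Figure D2:**
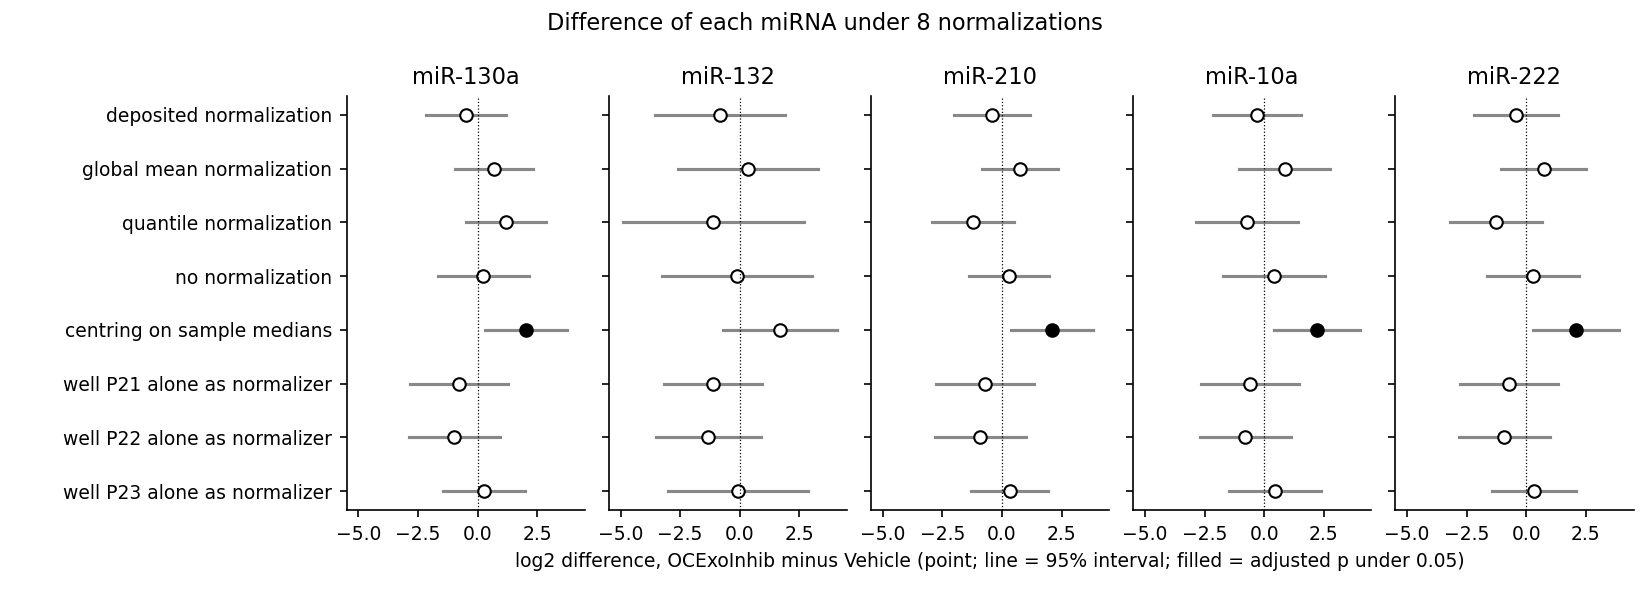
Log2 difference (OCExoInhib minus vehicle) of each miRNA under the deposited and 7 other normalizations, with limma's 95% interval as a line and a filled point where the adjusted p is under 0.05. Points of one miRNA fall on both sides of 0, and only centring on sample medians gives filled points, 4 of 5.

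Close relatives of the members differed in whether a Ct was deposited, and a missing Ct is not read here as absence. miR-10b had no Ct in any sample although it differs from miR-10a by a single base, and miR-212, the cluster partner of miR-132, had none either. miR-301a and miR-301b, which share the seed of miR-130a, were also without a Ct. Whether the assays separate such sequences was not tested. miR-130b and miR-221 had a Ct in all samples, earlier than that of the member in 6 of 6 samples each.

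miR-130b, the seed relative of miR-130a, was measured at Ct 26.4 ± 0.167 in the vehicle group and 25.2 ± 0.703 in the OCExoInhib group (means ± SD, n = 3 each). Its log2 difference was 0.49 (SE 0.78, limma adjusted p 0.866). Within samples miR-130a trailed miR-130b by 1.352, 0.075 and 0.684 cycles in vehicle samples and by 2.276, 2.690 and 0.090 in OCExoInhib samples, a comparison that needs no normalizer. The mean gap was 0.704 ± 0.639 in the vehicle group and 1.69 ± 1.40 in the OCExoInhib group (SD, n = 3 each). These differed by 0.982 cycles, with p 0.3 by a two-sided exact permutation test (0.6 adjusted over 2 pairs).

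miR-221, which shares its seed and a cluster with miR-222, was measured at Ct 30.4 ± 0.587 in the vehicle group and 30.2 ± 0.178 in the OCExoInhib group (means ± SD, n = 3 each). Its log2 difference was −0.55 (SE 0.79, limma adjusted p 0.866). miR-222 trailed it by 3.443, 1.942 and 5.500 cycles in vehicle samples and by 4.487, 3.234 and 2.858 in OCExoInhib samples. The mean gaps of 3.63 ± 1.79 and 3.53 ± 0.853 cycles (SD, n = 3 each) differed by −0.102 (exact two-sided permutation p 0.9, and 0.9 adjusted over 2 pairs). In vehicle 3 miR-222 had its latest Ct while miR-221 did not, so the 2 cluster partners did not move together there.

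**Figure D3:**
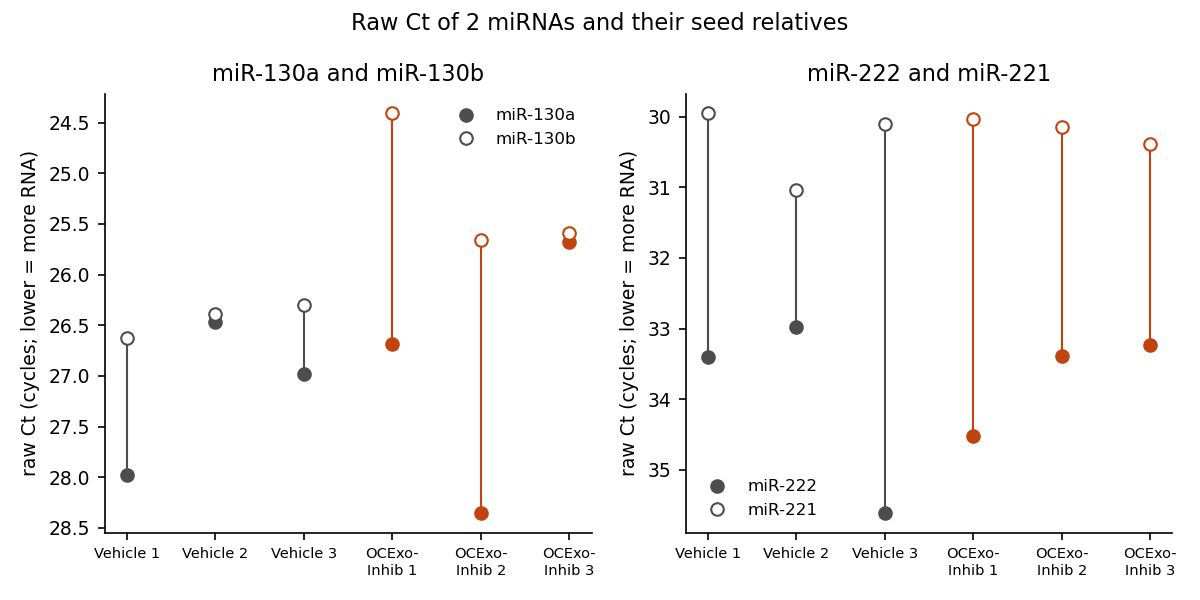
Raw Ct (cycles, axis turned so that more RNA is higher) of miR-130a with miR-130b and of miR-222 with miR-221, 1 line per sample, vehicle grey and OCExoInhib orange. The relative (open) is above the member (filled) in all 6 samples of both panels, with gaps from 0.075 to 5.500 cycles.

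The profiles nearest to the members over the 6 samples were those of miRNAs that also did not pass the threshold. The measure is the root mean square difference of normalized log2 levels, each profile centred on its own mean, over the 122 other miRNAs with a Ct in all samples. It includes the difference between the groups, so a miRNA with a large difference cannot lie near a member with a small one. That the nearest did not pass is thus in large part fixed by the measure. miR-503 was nearest to miR-130a (0.193, then miR-669a at 0.454, against a median of 1.12 over the 122). For miR-210 miR-129-3p (0.310) and miR-15b (0.357) were nearest. miR-293 was nearest both to miR-10a (0.388, then miR-326 at 0.486) and to miR-222 (0.356, then miR-465b-3p at 0.512). For miR-132 the nearest were miR-26a at 1.26 and miR-26b at 1.43, against a median of 2.35 over the 122. These larger distances go with its larger spread, since the measure grows with spread. The root mean square of its own profile around its mean was 2.11, against 0.682 for miR-130a.

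miR-130a and miR-503 kept an almost fixed distance. The Ct of miR-130a minus that of miR-503 was −4.392, −4.437 and −4.416 in vehicle samples and −4.047, −4.017 and −4.024 in OCExoInhib samples. Its SD within groups was 0.0194 cycles, while miR-130a itself varied by 1.10 and its next steadiest partner gave 0.538. This pair was singled out after its values were seen. Over the 123 miRNAs the median of such smallest SDs was 0.349, and 4 miRNAs (3.25%) had a partner within 0.05 cycles. Of these 4 miRNAs, 2 carry one of the recurring differences above and 2, miR-130a and miR-503, do not. The part of this pair in the values of miR-130a was not tested.

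Other miRNAs known from endothelium and vessel growth were followed through a list of 53 names, written with earlier results of these data known. Of these, 51 were on the panel, 30 had a Ct in all samples and 28 were tested. miR-126-3p and miR-126-5p, the miRNAs most closely tied to endothelium, had no deposited Ct in any sample, nor did miR-17, miR-18a, miR-23a and miR-24. Whether they were absent from the vesicles is not known. By limma, 8 of the 28 passed the threshold as lower (17.4% of all tested miRNAs did) and 1 as higher (6.09%), so 32.1% of the list passed against 23.5% of all. The list's median log2 difference was −0.76 against −0.54 over all tested.

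The 8 that fell were miR-107 (log2 difference −8.25), miR-16 (−5.41), miR-378 (−5.18), miR-21 (−4.87), miR-15a (−4.70), miR-214 (−3.20), miR-145 (−3.20) and miR-125b-5p (−3.16). miR-15a and miR-16 repress the growth factor Vegfa, and miR-378 is known to promote vessel growth. The 1 that rose was miR-34a (6.07), a p53 target that restrains Sirt1 in ageing endothelium. Its mean Ct was 36.28 in the vehicle group, past the limit of 35, and 29.48 in the OCExoInhib group. Its vehicle level thus rests at least in part on late values, which leaves the size of the rise uncertain. A stricter filter that drops every miRNA with a late value left 0 miRNAs passing as higher, against 7 in the main fit. That filter removes such miRNAs before any test, so its 0 does not show that a rise failed. With each Ct above 35 set to 35, 7 passed as higher, and with late Ct set to missing 3 did. All 9 carry one of the recurring Ct differences. With such miRNAs left out of the fit, 0 of the remaining 19 list members passed. These 19 are those that had not passed in the main fit, so this 0 was largely set by the removal. None of the 9 changed sign in the settings that tested them. Of these 9, only 5 passed with quantile normalization (9 lower and 7 higher over all miRNAs) and 5 by the unmoderated test. Differences of the 19 that did not pass ran from −0.998 for miR-146a to 0.35 for miR-100, a range that holds the values of the 5 members.

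**Figure D4:**
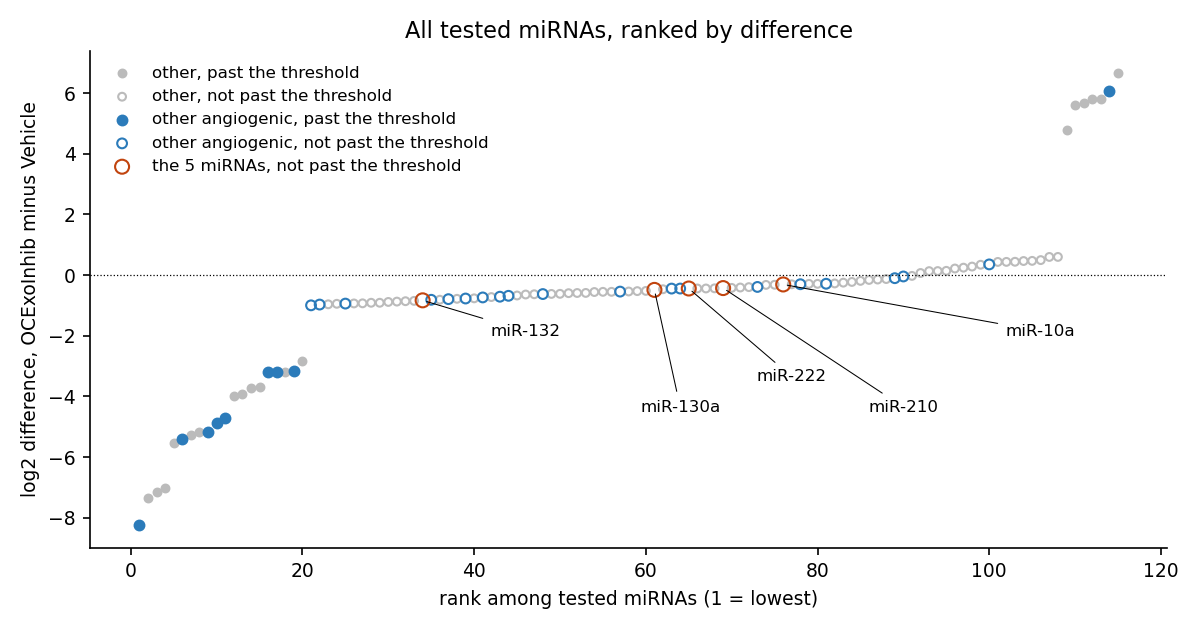
Log2 difference (OCExoInhib minus vehicle, deposited normalization) of the 115 tested miRNAs against their rank, with the 5 miRNAs as large orange rings, the other angiogenic list in blue and filled points past the threshold. The 5 lie between −0.83 and −0.31 on the flat stretch of 88 miRNAs that did not pass, which runs from −0.998 to 0.598.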

How the data were processed

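Serum exosomal miRNAs of 3 vehicle and 3 OCExoInhib samples were profiled by SYBR Green PCR over 40 cycles, per the labels' protocols. The deposited values are on a log2 scale, as raw Ct and, per the file headers, as Ct relative to a spike-in control, and the latter equal the raw Ct minus the mean of wells P21 to P23, whose RNA is not named. How the threshold was set is not given in the sources used here. In the authors' deposited table, fold ratios of vehicle over OCExoInhib were 1.403 for miR-130a, 1.782 for miR-132, 1.347 for miR-210, 1.24 for miR-10a and 1.36 for miR-222.

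A log2 level is the negative of the deposited normalized value. Tested were the miRNAs whose Ct was below 35 in 3 or more samples (115, all 5 members among them), fitted with limma 3.58.1 in R 4.3.3 (lmFit, eBayes, two-sided), which was tested on simulated data, with Benjamini-Hochberg adjustment at 0.05. The 8 others with a Ct were left out. Exact permutation tests used scipy 1.17.1 in Python 3.11.15. The tables held 0 columns of other samples.

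The members and lists were chosen with earlier results of these data known. Named are the members, their relatives, list members past the threshold and the 2 nearest profiles of each member. Any other miRNA named was chosen after its values were seen. The pairs of relatives and the steadiest partners were also added after seeing the data. Alternatives were other normalizations, Ct limits, treatments of late values, variance models, the sample number as a block, samples left out or averaged, and exclusion of recurring Ct differences.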

Additional observations from a re-analysis of the deposited data

How the results depend on the processing

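The count of members past the threshold was 0 in 23 of 24 settings and 4 with centring on sample medians. The number over all miRNAs was 16 with quantile normalization, 68 with median centring, 15 by the unmoderated test and 5 without recurring Ct differences, which removes 22 of the 27. For the other angiogenic list the numbers were 5 with quantile normalization, 5 by the unmoderated test and 0 without recurring differences. The last of these settings removes all 9 list members that had passed. With global mean normalization the log2 differences turned to 0.69 (miR-130a), 0.34 (miR-132), 0.75 (miR-210), 0.87 (miR-10a) and 0.73 (miR-222), and with median centring to 2.04, 1.69, 2.10, 2.22 and 2.08 in the same order. Without normalization they turned to 0.24 (miR-130a), 0.30 (miR-210), 0.41 (miR-10a) and 0.28 (miR-222), and with well P23 alone to 0.27, 0.33, 0.45 and 0.32 in that order. Quantile normalization turned miR-130a to 1.20 and moved the others down, to −1.11 (miR-132), −1.21 (miR-210), −0.70 (miR-10a) and −1.25 (miR-222). Well P21 alone gave −0.59 (miR-10a) to −1.11 (miR-132) and well P22 alone −0.79 (miR-10a) to −1.31 (miR-132). Setting late Ct to missing turned miR-132 to 0.28, by removal of OCExoInhib 1. These turns with the normalizer shift every miRNA alike, apart from quantile normalization, whose cause was not tested. Leaving out each sample gave −0.87 to 0.017 for miR-130a, −2.46 to 0.28 for miR-132, −0.94 to 0.40 for miR-10a, −0.71 to −0.13 for miR-210 and −1.11 to −0.11 for miR-222. The wells' difference was −1.004 cycles for P21, −1.20 for P22 and 0.035 for P23 alone, and −0.942 to −0.429 with samples left out.

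Correlations between samples of equal number, after removal of group means, were 0.0587, 0.0177 and 0.117, and no pairing was assumed. With the replicate block 25 miRNAs passed, 0 of them members, and no call of a member changed. A filter of Ct under 32 dropped miR-132, miR-210 and miR-222, and Ct under 35 in all samples dropped the same 3. By limma, intervals of about 4-fold lower to over 2-fold higher bound what 3 samples a group can show, more widely for miR-132. The unmoderated SE of miR-132, 2.065, was larger than limma's.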

Other observations

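The log2 differences of the 5 miRNAs lay closer together than limma's SEs of them. They spanned 0.523 and had an SD of 0.197, while limma's SE of a single difference ran from 0.752 to 1.28. By the unmoderated test the SEs ran from 0.408 (miR-210) to 2.065 (miR-132), so the span exceeded the smallest of these. Over the 88 tested miRNAs that did not pass, the differences had an SD of 0.432 against a median limma SE of 0.817. These 88 were selected by not passing, so their small SD is in part fixed by that choice. The smallest unadjusted limma p among these 88 was 0.24. Part of the spread between samples is shared by all miRNAs through the normalizer, and that share was not tested.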
